A study of Canis lupus familiaris with 4 samples.

Results

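The genes of the DNA replication machinery were examined in untreated canine mesenchymal stromal cells (MSCs), the adherent connective tissue progenitors that grow out of fat. The set was defined by name, from 44 gene symbols, and 43 of them were found among the 30951 genes of the deposited table; E2F1 is not analysed here. All samples form 1 group: primary MSCs of 4 dogs, 1 culture and 1 RNA library per dog, held in DMEM medium with 10% fetal bovine serum and taken 48 h after seeding in multiwell plates. The labels state no genotype, breed, age, passage number, confluence or treatment that sets 1 culture apart, and the series title concerns the antimicrobial activity of the freeze-dried secretome of such cells. With a single group there is no contrast between conditions. The values show where each gene stood within its own library and how far the 4 cultures differed.

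Replication starts at origins that are marked by the origin recognition complex. In G1 the loaders CDC6 and CDT1 place the ring-shaped helicase MCM2 to MCM7 there (licensing), and in S phase the kinases CDK2 and CDC7, with MCM10, CDC45 and the GINS complex, switch it on so that the polymerases can follow. Transcription of many of these genes is driven by E2F factors once cyclin D and cyclin E kinases have inactivated the retinoblastoma protein, and it falls away when cells leave the cycle. Replication genes are therefore widely read as a sign of how many cells in a culture are cycling. In bulk RNA, a smaller share of cycling cells and less RNA per cycling cell cannot be told apart.

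Reads assigned to genes numbered 7474011 to 22411268 per library, dog 4 being the shallowest. The stromal identity given by the labels was checked first. THY1, CD44, ENG, PDGFRA, PDGFRB, COL1A1 and VIM lay above the median gene of the libraries, and NT5E, which encodes CD73, lay below it with 47, 20, 21 and 3 reads in dogs 1 to 4. Of 9 leukocyte markers 8 had reads in fewer than 2 libraries (PTPRC had 5 reads in dog 3 and 0 elsewhere). The remaining marker, CSF1R, had 103, 247, 289 and 48 reads in dogs 1 to 4 and lay neither above nor below the median gene. The 6 endothelial markers were mixed: PECAM1 had 0 reads in every library, and 3 others lay below the median gene. VWF, however, had 380, 62, 214 and 12 reads in dogs 1 to 4, and KDR had 95, 65, 76 and 34. Reads in these marker checks are not scaled for depth. Divided by the size factor of the library, VWF had 273, 57.2, 204 and 26.0, and KDR had 68.2, 60.0, 72.6 and 73.7. Dog 4 stood apart in some stromal and other markers: COL1A1 and VIM were lowest there, and the simple epithelial keratin KRT18 had 435 reads in dog 4 against 9, 9 and 25 in dogs 1 to 3, while CDH1 had 0 reads in all 4.

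All 43 genes had reads in every library, the fewest being 3 reads of E2F2 in dog 4. Values are given as normalized reads (reads divided by the size factor of the library) and as levels, the deposited log2 value minus the median of the detected genes of the same library. A gene was called above or below the median detected gene when its mean level differed from it by more than 1 log2 unit (limma, 4 dogs, Benjamini-Hochberg adjusted p under 0.05 over the 17200 genes tested). By this test 24 of the 43 genes were called above (55.8%), 1 was below and 18 were neither, while among all tested genes 33.3% were above and 35.8% below. Taking the median over genes with reads in all 4 dogs raised the reference by 0.82 and left 13 called above: MCM2 to MCM7, ORC2, ORC4, POLE, PCNA, RFC1, RRM1 and RRM2, which were called above in each of the 14 alternatives run. A raised reference lowers the share called above among all tested genes as well. That share is not given here, so the 13 are not set against a background. The median level of the 43 genes was 1.38, against -0.02 over all tested genes. Values were not corrected for transcript length, so length can enter the levels and with them the calls above and below. Between dogs a gene is compared with itself, and no order of abundance among genes is read from the levels. Errors are SD over 4 dogs, and p-values are adjusted by limma.

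**Figure D1:**
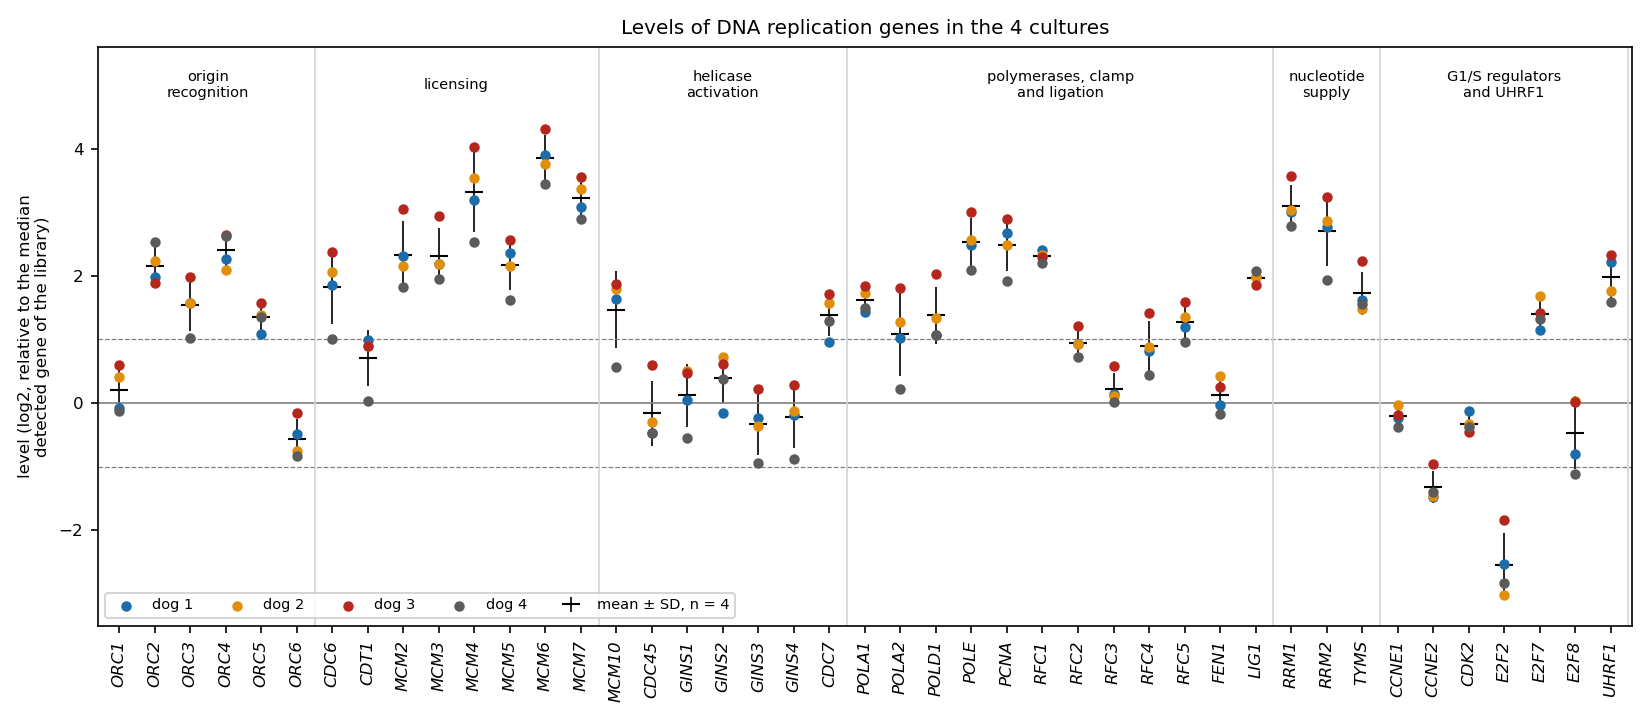
Level of each of 43 DNA replication genes (log2, relative to the median detected gene of the library) in the 4 cultures, grouped by role; coloured points are dogs, black bars the mean ± SD (n = 4), and dashed lines the distance of 1 used by the test. Most red points (dog 3) top their column and most grey points (dog 4) close it from below, whereas RFC1, LIG1 and CDK2 are nearly level in all dogs.

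Of the 8 licensing genes 7 were called above, and all 8 were lowest in dog 4, beside 33.3% and 28.8% of all tested genes. MCM6 had 2357, 2156, 3168 and 1715 normalized reads in dogs 1 to 4, a level of 3.85 ± 0.36 (adjusted p = 4.82e-08). MCM4 had 1426, 1846, 2617 and 893, a level of 3.32 ± 0.63 (adjusted p = 2.88e-06). MCM7, whose introns house the miR-106b cluster, had 1322, 1643, 1878 and 1154 (level 3.22 ± 0.30, adjusted p = 1.56e-07). These genes share an order at its ends, with dog 3 highest and dog 4 lowest.

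The other helicase subunits kept the same ends. MCM2 had 770, 697, 1315 and 540 normalized reads (level 2.34 ± 0.52, adjusted p = 4.78e-05). MCM3 had 703, 711, 1216 and 592 (level 2.31 ± 0.43, adjusted p = 2.41e-05). MCM5 had 789, 699, 930 and 468 (level 2.17 ± 0.40, adjusted p = 4.21e-05). In MCM2 and MCM3 the values of dogs 1 and 2 lay close to each other, and the gap above them to dog 3 was wider than the gap below them to dog 4.

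Much of the difference between dogs was common to the 6 subunits. Their mean level was 2.84, 2.86, 3.41 and 2.38 in dogs 1 to 4. When the mean of the other 5 subunits was subtracted from each, its SD between dogs was 0.17 for MCM2, 0.15 for MCM3, 0.30 for MCM4, 0.18 for MCM5, 0.12 for MCM6 and 0.22 for MCM7, against 0.30 to 0.63 before. MCM4 still differed, standing 0.42, 0.81, 0.75 and 0.18 above the other 5 in dogs 1 to 4. Of the variance of the 6 genes between dogs (their values centred on each gene's own mean), 86.6% lay in 1 profile over the dogs common to all of them, a share that a short list raises by construction. Since transcript length is the same in every dog, it drops out of differences between dogs. It stays in how far a subunit stood above or below the others within a dog.

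**Figure D2:**
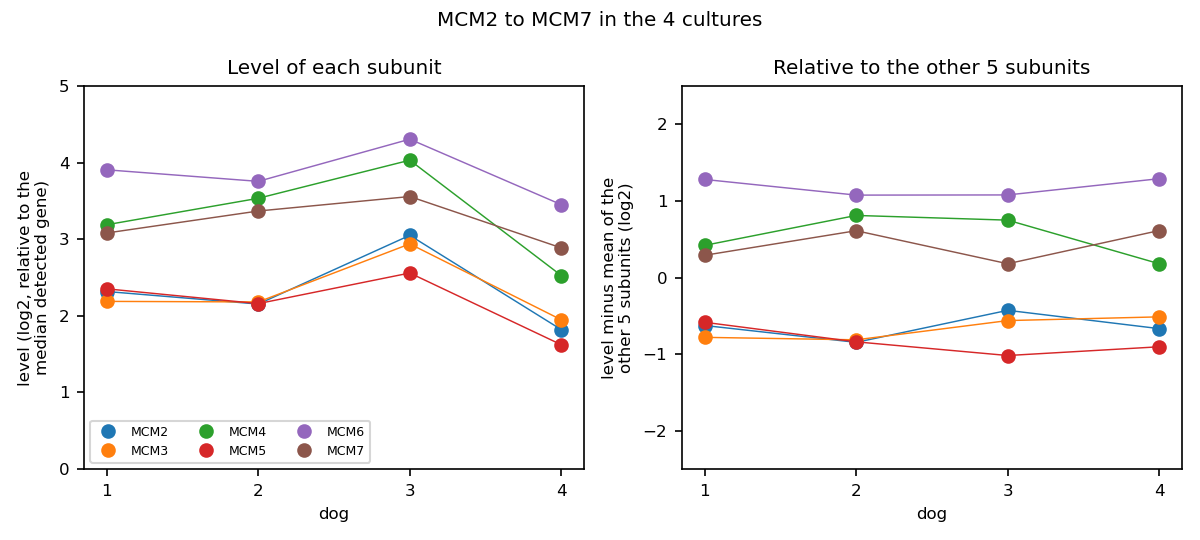
Left, level of MCM2 to MCM7 (log2, relative to the median detected gene) in each dog; right, the same values minus the mean of the other 5 subunits in that dog. Lines only join points of 1 gene, since dogs have no order. All 6 subunits peak at dog 3 and are lowest at dog 4 on the left; on the right the SD of each is 0.12 to 0.30, and MCM4 is still lowest in dog 4.

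The loaders CDC6 and CDT1 differed in where the cultures split. CDC6, the ATPase that loads the ring together with the origin recognition complex, had 551, 651, 815 and 299 normalized reads (level 1.82 ± 0.58, adjusted p = 0.00216), so dog 4 was low and dog 3 high. CDT1, its partner that is destroyed in S phase, had 294, 281, 282 and 143 (level 0.71 ± 0.45, neither above nor below). For CDT1 dogs 1 to 3 were within a narrow band and only dog 4 stood away.

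The 6 subunits of the origin recognition complex did not share 1 profile over the dogs. ORC2, ORC3, ORC4 and ORC5 were called above, and ORC1 and ORC6 were neither, beside 33.3% above among all tested genes. ORC1, the subunit whose transcript is under E2F control, had 131, 193, 224 and 126 normalized reads (level 0.20 ± 0.36). ORC6, the smallest subunit, had 93.4, 75.7, 125 and 69.4 (level -0.56 ± 0.31). In both, dog 3 was highest and dog 4 lowest.

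ORC2 went the other way. It had 603, 735, 579 and 902 normalized reads (level 2.16 ± 0.29, adjusted p = 1.68e-05), so dog 4 was highest and dog 3 lowest. ORC4 had 741, 669, 981 and 961 (level 2.41 ± 0.27, adjusted p = 3.67e-06), with dogs 3 and 4 almost equal. The within-dog difference ORC1 minus ORC2, a pair picked after its values were seen, was -2.05, -1.83, -1.29 and -2.66 log2 units, spanning more than either gene alone. ORC3 (level 1.53 ± 0.40) followed the helicase order. ORC5 (1.35 ± 0.20, adjusted p = 0.0209) lost its call without dog 2 (level 1.33) or dog 3 (1.27), among other alternatives.

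Of the 7 helicase activation genes 2 were called above and 5 were neither, beside 33.3% above among all tested genes. MCM10, which helps the helicase open the origin, had 474, 540, 568 and 215 normalized reads (level 1.47 ± 0.61, adjusted p = 0.0385). Dogs 1 to 3 lay together and dog 4 far below them. The call was lost without dog 1, 2 or 3 (levels 1.41, 1.36 and 1.33), among other alternatives. The kinase gene CDC7 had 287, 460, 507 and 369 (level 1.38 ± 0.33, adjusted p = 0.0247), with dog 1 lowest. It lost its call without dog 2 (level 1.32) or 3 (1.28), among other alternatives.

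CDC45, the helicase cofactor, had 94.8, 111, 224 and 95.4 normalized reads (level -0.16 ± 0.51). Dog 3 alone was high there, at 2.35 times dog 4 (95% exact interval 1.70 to 3.32, counting error only). The 4 GINS genes encode a complex that holds CDC45 to the MCM ring. GINS3 had 114, 106, 167 and 62.9 normalized reads (level -0.33 ± 0.48), and GINS4 (-0.23 ± 0.48) had the same highest and lowest dog. GINS1 (0.12 ± 0.49) was highest in dog 2 and lowest in dog 4, and GINS2 (0.39 ± 0.39) highest in dog 2 and lowest in dog 1.

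Among the polymerase, clamp and ligation genes 6 of 12 were called above and the other 6 neither, beside 33.3% above among all tested genes. The leading-strand polymerase gene POLE had 865, 929, 1273 and 657 normalized reads (level 2.53 ± 0.37, adjusted p = 4.91e-06). PCNA, the sliding clamp that tethers polymerases to DNA, had 996, 878, 1176 and 581 (level 2.49 ± 0.42, adjusted p = 8.64e-06). In both, dog 3 was high and dog 4 low. POLA1 (1.62 ± 0.19) and the lagging-strand polymerase gene POLD1 (1.38 ± 0.45) were above as well. POLD1 lost its call without dog 2 (level 1.39) or 3 (1.16), among other alternatives.

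The primase-polymerase subunits POLA1 and POLA2 diverged between cultures. POLA2 had 303, 368, 546 and 165 normalized reads, a 3.31-fold gap between dogs 3 and 4 (95% exact interval 2.60 to 4.27, counting error only), and its SD of 0.66 was the widest of the 43 genes. POLA1 had 409, 517, 555 and 425, a ratio of dog 3 to dog 4 of 1.30 (1.11 to 1.54), with dog 1 lowest. POLA2 minus POLA1, also picked after its values were seen, was -0.41, -0.47, -0.02 and -1.27. POLA2 itself was neither above nor below (level 1.08), and it was above without dog 4 (level 1.37).

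The clamp loader and the ligation genes included the steadiest members. RFC1, the large subunit of the clamp loader, had 817, 793, 773 and 709 normalized reads (level 2.31 ± 0.08, adjusted p = 1.84e-06). LIG1, which seals Okazaki fragments, had 606, 614, 562 and 653 (level 1.97 ± 0.09, adjusted p = 1.59e-05). Between the highest and the lowest dog these genes differed 1.15-fold and 1.16-fold. The small loader subunits RFC2, RFC3, RFC4 and RFC5 had mean levels of 0.22 to 1.28, each with dog 3 highest and dog 4 lowest, and none was called; RFC5 was above without dog 4 (level 1.38). The flap nuclease gene FEN1 had 135, 197, 172 and 121 normalized reads (level 0.12 ± 0.27).

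All 3 genes of nucleotide supply were called above, beside 33.3% of all tested genes. RRM1 and RRM2 encode the subunits of ribonucleotide reductase, which makes deoxynucleotides. RRM1 had 1256, 1299, 1902 and 1076 normalized reads (level 3.10 ± 0.33, adjusted p = 3.52e-07). RRM2, the subunit that cycles with S phase, had 1058, 1152, 1504 and 588 (level 2.70 ± 0.55, adjusted p = 1.12e-05). Dog 3 was highest in both, and the drop to dog 4 was deeper in RRM2, where RRM2 minus RRM1 was -0.85 against -0.33 to -0.17 in dogs 1 to 3. Thymidylate synthase (TYMS), which makes the thymine nucleotide, had 465, 431, 738 and 449 (level 1.72 ± 0.34, adjusted p = 0.000793), with dog 3 high and the other 3 alike.

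Among the G1/S regulators and UHRF1, 2 of 7 genes (UHRF1 and E2F7) were above and 1 below, beside 33.3% and 35.8% of all tested genes. UHRF1, which brings DNA methylation to new strands, had 720, 524, 793 and 460 normalized reads (level 1.98 ± 0.36, adjusted p = 0.000106). E2F7, a repressor that closes the E2F wave, had 330, 496, 411 and 377 (level 1.39 ± 0.22, adjusted p = 0.0133). The call of E2F7 was lost without dog 2 (level 1.30), among other alternatives. The related gene E2F8 had 71.8, 145, 143 and 54.2 (level -0.47 ± 0.58), so dogs 2 and 3 were high and dogs 1 and 4 low. The activator E2F2 was the only member below, with 15, 5, 28 and 3 reads (level -2.55 ± 0.52, adjusted p = 0.000241).

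The cyclin E genes and their kinase were called neither above nor below. CCNE1 had 114, 137, 122 and 102 normalized reads (level -0.21 ± 0.15), and CDK2, which cyclin E activates, had 125, 108, 97.4 and 102 (level -0.33 ± 0.14). The highest and lowest dogs differed 1.35-fold and 1.28-fold. CCNE2 rested on 53, 43, 67 and 19 reads (level -1.32 ± 0.25, adjusted p = 0.124), with dog 3 apart from the others. The ratio of dog 3 to dog 4 was 1.20 (95% exact interval 0.85 to 1.71, counting error only) for CCNE1 and 0.96 (0.67 to 1.38) for CDK2, so a difference between these libraries was not detectable at this depth in either gene.

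Across all members, dog 3 was the highest library for 32 of 43 genes (74.4%), while it was highest for 23.4% of all tested genes. Dog 4 was the lowest for 29 of 43 (67.4%), against 28.8% of all tested genes, and both held together for 23 (53.5%, against 12%). Dog 3 exceeded dog 4 in 40 of 43 members (93.0%) and in 44.7% of all tested genes; the exceptions were ORC2, LIG1 and CDK2. These summaries of dog 3 and dog 4 were chosen after their values were seen, and with 1 library per dog they describe cultures and have no test.

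**Figure D3:**
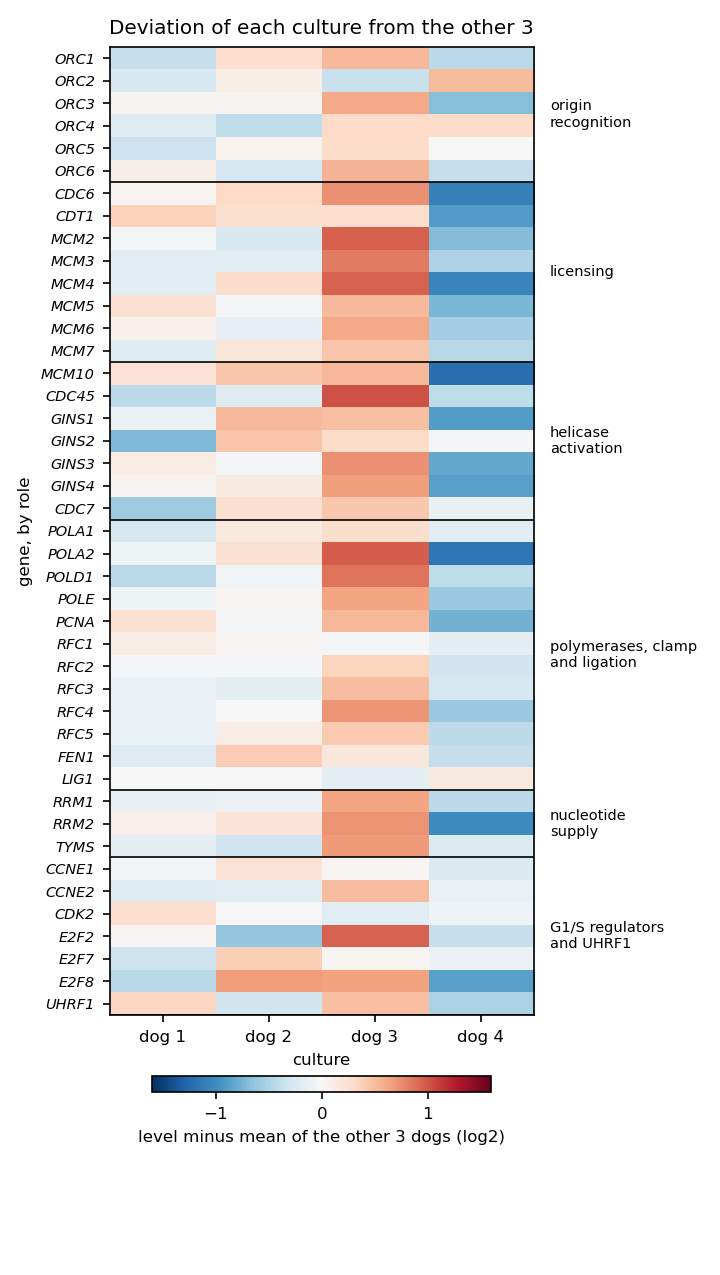
Deviation of each culture from the mean of the other 3 dogs (log2) for the 43 genes, ordered by role; red is higher and blue lower. The column of dog 3 is mostly red and that of dog 4 mostly blue, with the reverse in ORC2 and LIG1.

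A culture's deviation was taken as its level minus the mean of the other 3 dogs. The median deviation of the 43 genes was -0.10, 0.03, 0.53 and -0.42 in dogs 1 to 4, and that of all tested genes was 0.02, 0.00, -0.03 and 0.06. In dog 3 the median was 0.68 for nucleotide supply, 0.67 for licensing, 0.53 for helicase activation, 0.48 for G1/S regulators with UHRF1, 0.46 for polymerases, clamp and ligation, and 0.42 for origin recognition. In dog 4 it was -0.82 for helicase activation, -0.71 for licensing, -0.42 for nucleotide supply, -0.39 for polymerases, clamp and ligation, -0.23 for the regulators and -0.18 for origin recognition. Differences between roles were not tested. Dogs 1 and 2 were within 0.5 of each other in 39 of 43 genes. The share over all tested genes was not taken, so this count is not read as a trait of the members.

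A profile over dogs common to all 43 genes held 55.4% of their variance between dogs. Within roles the share was 83.9% for licensing, 81.3% for nucleotide supply, 67.6% for helicase activation, 60.1% for polymerases, clamp and ligation, 34.1% for the regulators and 28.4% for origin recognition. Small lists give a larger share by construction, so the shares of roles with few genes are not ranked against longer ones. The median SD between dogs was 0.36 over the members and 0.36 over all tested genes, and 21 members exceeded the latter.

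No member passed the test of variability between dogs (limma's trended prior, F test, Benjamini-Hochberg: 0 of 43; 0% of all 17200 genes). The smallest adjusted p of this F test over all tested genes was 0.0796, and KRT18, with an SD of 2.58, had 0.213. With 4 dogs the test singled out no gene, so its outcome does not show that the members were steady. At an unadjusted p under 0.05 there were 2, MCM4 (adjusted p = 0.762) and RRM2 (adjusted p = 0.945), beside 5.2% of all tested genes. The 6 widest SDs belonged to POLA2 (0.66), MCM4 (0.63), MCM10 (0.61), CDC6 (0.58), E2F8 (0.58) and RRM2 (0.55).

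**Figure D4:**
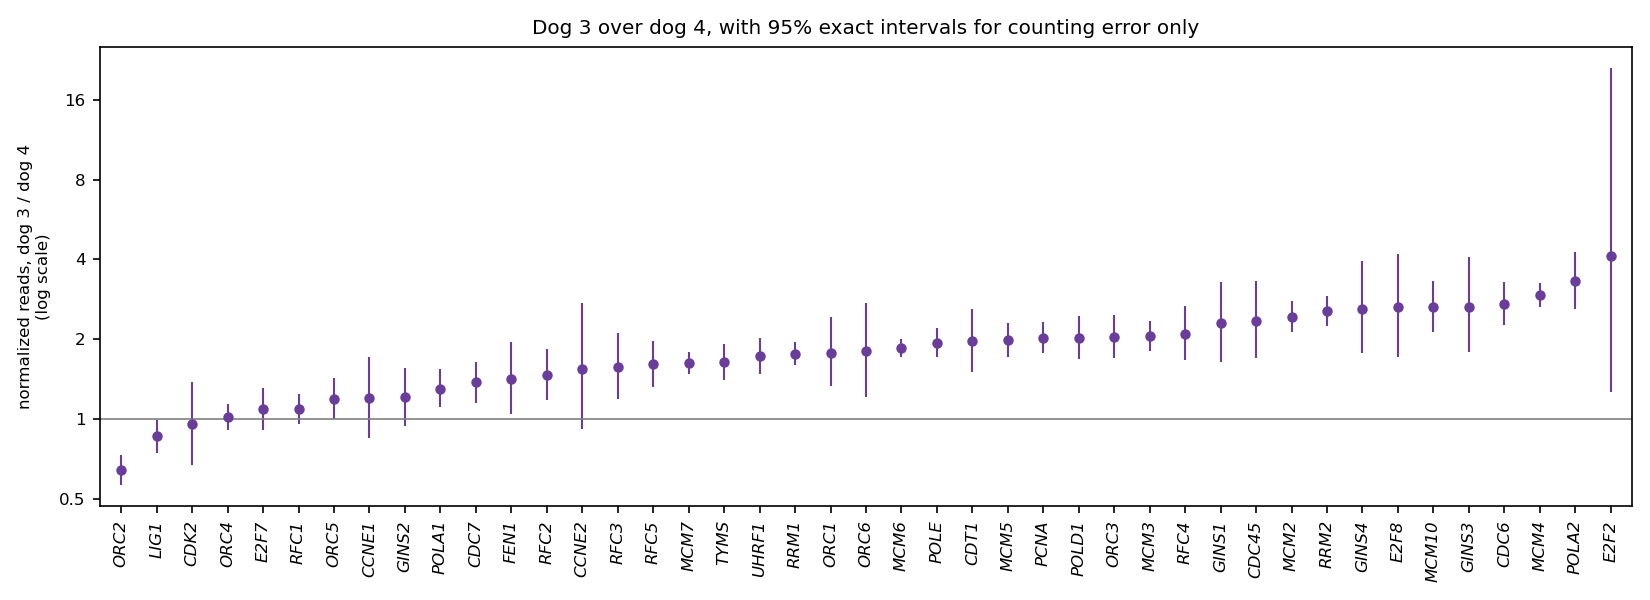
Ratio of normalized reads in dog 3 over dog 4 for each of the 43 genes, sorted, on a log scale; bars are 95% exact intervals and cover counting error only. Intervals lie wholly above 1 for 34 genes, wholly below 1 for ORC2 and LIG1, and span 1 for 7; over all tested genes 24.9% lie above 1 and 29.4% below. These shares are not matched for read number, on which the width of an interval depends.

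The direct ratio of dog 3 to dog 4 had a median of 1.80 over the members. Its 95% exact interval lay above 1 in 34 of 43 genes, against 24.9% of all tested genes, below 1 in 2, against 29.4%, and spanned 1 in 7. An interval narrows as reads rise, and the median level was 1.38 over the members against -0.02 over all tested genes. The shares are therefore not matched for read number, and the size of the contrast is not read from them. These intervals compare 2 libraries and not 2 conditions. The ratio was 2.93 (2.64 to 3.26) for MCM4, 2.72 (2.27 to 3.28) for CDC6 and 2.56 (2.25 to 2.92) for RRM2, and 0.64 (0.57 to 0.73) for ORC2. For E2F2 it was 4.11 with a wide interval of 1.27 to 21.1, since dog 4 had 3 reads.

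Dog 4 had the fewest reads, so the libraries were also thinned to its 7474011 reads. The median deviation of the members was then 0.54 in dog 3 and -0.44 in dog 4, with dog 3 highest in 33 genes and dog 4 lowest in 30. The median deviation of dog 3 was 0.42 when dog 4 was left out, and that of dog 4 was -0.29 when dog 3 was left out.

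Of 39 other listed genes of the replication fork and of origins, 33 were measured. The test called 9 of them above, 1 below and 23 neither, and their median level was 0.74. Since 33.3% of all tested genes were above, 9 of 33 was no excess. TOPBP1, which helps to fire origins, had a level of 3.01 ± 0.16, and the maintenance methyltransferase gene DNMT1 2.97 ± 0.28. RPA3, a subunit of the single-strand binding protein, was below at -3.06 ± 0.64, with 0, 14, 7 and 2 reads. Dog 3 was highest in 18 and dog 4 lowest in 20 of the 33, beside 23.4% and 28.8% of all tested genes. The median deviations of these dogs were 0.30 and -0.28.

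Of 10 further nucleotide supply genes 5 were above and 5 neither. NME2 (4.24 ± 0.27) and NME1 (2.30 ± 0.61) encode nucleotide kinases and are near-identical neighbours, so their reads are uncertain. The salvage enzyme gene TK1 was highest in dog 4, at a level of 2.20, and lowest in dog 3, at 1.46. In these 10 genes dog 3 was highest in 4 and dog 4 lowest in 5, with median deviations of 0.21 and -0.20. Among 20 further G1/S regulators 7 were above and 13 neither, close to the 33.3% of all tested genes called above. In these 20 genes the ends of the members were kept only in part. Dog 3 was highest in 7 and dog 4 lowest in 10, beside 23.4% and 28.8% of all tested genes. Dog 4 was also highest in 7, and the median deviations were 0.02 in dog 3 and -0.32 in dog 4. The cyclin D kinase gene CDK4 (3.71 ± 0.44) and the retinoblastoma gene RB1 (3.06 ± 0.39) were called above, and the phosphatase gene CDC25A (-0.47 ± 0.29) neither. Cyclin D1 (CCND1) had levels of 2.87, 1.78, 2.44 and 4.17, with dog 4 highest, and cyclin D2 (CCND2) had 1.57, 1.53, 1.57 and 0.13, with dog 4 lowest.

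In the mitosis list dogs 3 and 4 were again at the ends. The test called 10 of its 20 measured genes above and 10 neither, beside 33.3% above among all tested genes. Dog 3 was highest in 14 and dog 4 lowest in 18, beside 23.4% and 28.8% of all tested genes. The median deviations of these dogs were 0.45 and -0.74. TOP2A, the topoisomerase that untangles chromosomes, had levels of 3.24, 3.47, 3.63 and 2.82. The proliferation marker gene MKI67 had 3.11, 2.92, 2.87 and 1.73, so dog 4 was low but dog 3 was not high. NUF2, a kinetochore gene, had a level of -0.10 ± 0.33. The difference between the replication and mitosis lists was not tested.

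Of 6 measured genes of the cell cycle brakes (CDK inhibitors, p53 and its antagonist), 3 were above and 3 neither, beside 33.3% above among all tested genes. Dog 3 was lowest in 4 of them and highest in CDKN2C and CDKN2D, with a median deviation of -0.31. Dog 4 lay above the mean of the other dogs in all 6, by 0.01 (CDKN2C) to 0.46 (CDKN1A), as it did in 53.9% of all tested genes. CDKN1A, which encodes p21, had levels of 4.53, 3.05, 2.69 and 3.88. MDM2 had 4.33, 3.67, 3.63 and 4.30, and the inhibitor gene CDKN2D had -1.35, -0.97, -0.75 and -0.91. In both CDKN1A and MDM2, dog 1 was highest and dog 3 lowest, whereas dog 1 was lowest in CDKN2C and CDKN2D. A link between these genes and the replication genes was not tested. CDKN2A is not analysed here.

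**Figure D5:**
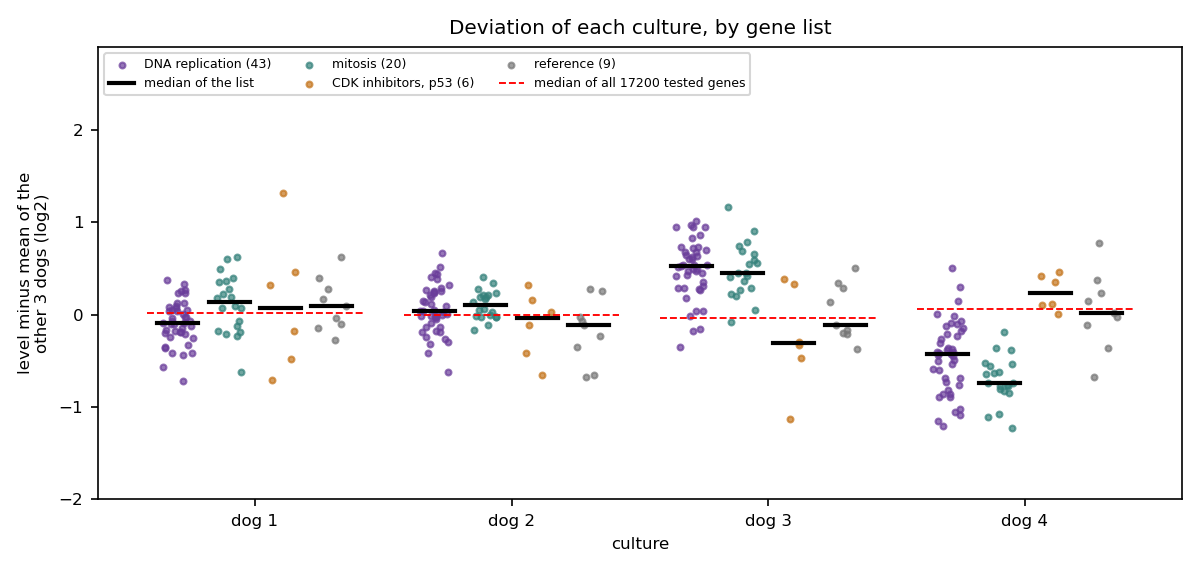
Deviation of each culture from the mean of the other 3 dogs (log2) for genes of DNA replication, mitosis, CDK inhibitors with p53, and reference genes; points are genes, black bars list medians and red dashes the median of all 17200 tested genes. Replication and mitosis medians are 0.53 and 0.45 in dog 3 and -0.42 and -0.74 in dog 4, where the reference genes have a median of 0.02 and spread from -0.68 to 0.78.

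Reference genes gave the background of the same measure: the median deviation of 9 was -0.11 in dog 3 and 0.02 in dog 4, where single genes ran from -0.68 (B2M) to 0.78 (PGK1), and 8 of the 9 were called above, among them ACTB (8.95 ± 0.18) and GAPDH (6.81 ± 0.37). Marker lists differed between dogs as well. Stromal markers summed to 49468, 53015, 55501 and 27887 CPM (reads scaled to a common library total) in dogs 1 to 4, of which COL1A1 alone gave 40239, 43936, 45401 and 23220. Of the 8 markers 6 were lowest in dog 4, while ENG was highest there and THY1 lowest in dog 1. The epithelial and mesothelial list, of which 3 of 6 genes were measured, summed to 0.45, 0.55, 1.64 and 58.2 CPM, all but KRT18 at 0 or 1 read. Leukocyte markers summed to 5.13, 15.2, 19.6 and 6.56 CPM, of which CSF1R gave nearly all. Their part in the profile of the replication genes was not tested.

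Reads of some members may include those of neighbours, since the strand setting of the counting is not given in the sources used here. In the dog RefSeq annotation, which is of another genome build and served for gene neighbours alone, the spans of 14 members overlap a protein-coding gene. Among them are ORC1 with TUT4, ORC2 with NIF3L1, CDC45 with DNAJA1 and MCM7 with AP4M1. Others are RFC4 with EIF4A2, FEN1 with TMEM258 and CCNE2 with INTS8.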

How the data were processed

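Total RNA of 4 canine MSC cultures was sequenced after ribosomal depletion, from 10 ng of RNA per library, per the labels' protocols. FastQC 0.12.1, Trimmomatic 0.39, STAR 2.7.11a, DESeq2 and the build CanFam3.1 are named in the submitters' processing notes; which counter, strand setting and gene annotation were used is not given in the sources used here. The deposited values are log2 values after the variance-stabilizing transformation, per the file headers. Columns were matched to samples by dog number, and 0 columns were left unused.

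The transformation was inverted from the lowest value of the table, which stands for 0 reads. All values came out as whole reads within 0.01, with size factors of 1.39, 1.08, 1.05 and 0.461. Tests ran on the deposited log2 values in limma 3.58.1 (R 4.3.3) over 17200 genes with reads in at least 2 of 4 dogs, with a trended prior, and were tested on simulated data. Ratios have exact 95% intervals from scipy 1.17.1. The members, lists and roles were chosen with earlier results of these data known. Values per dog are given for MCM2 to MCM7, for the 2 highest and the lowest gene of each role, for the 6 widest SDs, for genes with 1 library apart (past Dixon's critical ratio for 4 values) and for any below; some others were added after their values were seen. Labels do not say whether dogs differ in handling, so the spread includes culture and library. Alternatives covered the reference, distance, normalization, pseudocount, filter, prior, depth, list summary and leaving out each dog. No sequences are printed because no sequence table was used.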

Additional observations from a re-analysis of the deposited data

Results flagged for a closer look

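For 3 of the 43 members 1 library stood apart, with a gap to its nearest neighbour that exceeded Dixon's 95% critical share of the range over the 4 dogs; chance flags about 1 gene in 20, and 5.36% of all tested genes were flagged. CDT1 was low in dog 4 (ratio of gap to range 0.91), with levels of 0.99, 0.90, 0.91 and 0.04. CDC45 was high in dog 3 (ratio 0.845), with levels of -0.47, -0.30, 0.60 and -0.46. CCNE2 was high in dog 3 (ratio 0.851), with levels of -1.48, -1.46, -0.95 and -1.40, on 19 to 67 reads.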

How the results depend on the processing

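The number of members above the median detected gene was 24, and it was 13 with the median taken over genes with reads in all 4 dogs and 15 at a distance of 1.5; in the other alternatives it was 18 (thinned libraries) to 28 (distance 0.5), and 19 to 26 when 1 dog was left out. The number below was 1, and 2 with that reference, at a distance of 0.5 and with thinned libraries, where CCNE2 was added to E2F2. With thinned libraries ORC3, ORC5, MCM10, CDC7, POLD1 and E2F7 lost their call above. MCM10 and POLD1 also lost it with the filter of reads in all 4 dogs, with no filter and with a prior without trend. Both distances and the reference change the question asked by their construction. The shares of all tested genes called under these alternatives are not given here, so their counts have no background beside them. Median deviations in dogs 3 and 4 kept their sign in every alternative run, from 0.42 to 0.65 in dog 3 and from -0.58 to -0.29 in dog 4. No member passed the variability test under any alternative run, but the main test called no gene at all, so this is not read as steadiness of the members. Levels per length were not run, because the reference table gives only gene spans. No paired analysis was possible because there is 1 group. Depth limits E2F2 and CCNE2 most.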
